A study of Arabidopsis thaliana with 18 samples.

Results

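Transcripts of unstressed rrp6l1-2 seedlings were compared with those of unstressed wild-type (WT) seedlings of Arabidopsis thaliana, 3 poly(A) RNA sequencing libraries against 3. These are 6 of the 18 libraries of the study, and the libraries were chosen by genotype and treatment alone. All 33602 loci of the deposited tables entered, and the 22795 that passed a filter on low counts were tested. The rrp6l1-2 line carries the T-DNA insertion Salk_027601 according to the labels, so everything said of it rests on 1 insertion line, and no other allele or complemented line was among the libraries used here. WT is the accession Col-0. All seedlings of both groups were grown on half-strength medium without sugar in continuous light, kept at a water potential of -0.25 MPa, and harvested whole at 11 days of age. One label text says that control seedlings stayed where they were, another that they were moved to fresh control plates at 7 days, 96 h before harvest. The 3 libraries of a group are described as separate biological experiments. Libraries of the mutant ahl10-1, which is disrupted in a gene for an AT-hook DNA-binding protein, are used below to see how far a difference recurs. So are libraries of seedlings moved at 7 days to agar infused with PEG-8000 at -0.7 MPa. These libraries also entered the fit, so the spread behind every test below was estimated from all 18 libraries.

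RRP6-like proteins are relatives of RRP6, a 3′ to 5′ exonuclease that works with the nuclear RNA exosome in yeast and animals. The exosome trims and degrades RNA from its 3′ end, and its targets include processing intermediates and noncoding transcripts that otherwise do not accumulate. In Arabidopsis, RRP6L1 and RRP6L2 are nuclear, and RRP6L1 is known for roles in RNA-directed DNA methylation, a pathway that silences transposons, and in the control of the flowering repressor FLC.

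The libraries held 60066491, 63647242 and 60845176 reads assigned to genes in rrp6l1-2, and 66906434, 61056858 and 61107978 in WT. Levels are given as CPM (counts of a gene relative to the library total, scaled by TMM factors), in the order of the replicate numbers 1, 2 and 3, and a count of 0 allows up to 3 reads, or 0.0455 to 0.0547 CPM in these libraries. Fold changes are log2 of rrp6l1-2 over WT with their standard errors (SE) from the fit, n = 3 each. Adjusted p-values are Benjamini-Hochberg values from edgeR's quasi-likelihood test over all genes tested, and a gene was called below 0.05. RNA came from whole seedlings, so fewer cells of a type and less RNA per cell cannot be told apart in any value below.

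In unstressed seedlings 48 genes were called, which is 0.211% of those tested. Of these 33 were higher in rrp6l1-2 (0.145%) and 15 lower (0.0658%). Among the genes that fell furthest were RRP6L1 itself and neighbours of it on chromosome 1, such as HIRD11, a dehydrin, with 94 reads in rrp6l1-2 against 108543 in WT. Among the genes that rose at least 2-fold were pseudogenes, noncoding RNAs and short uncharacterized genes, together with LBD26, a transcription factor of the LOB-domain family, and ESM1, a protein that steers the breakdown of glucosinolates. The size of the changes varied: 23 of the 48 changed at least 2-fold, 15 higher and 8 lower. The median log2 fold change was 0.85 over the genes that rose and -1.29 over those that fell, against -0.02 over all genes tested.

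At an unadjusted p under 0.05 there were 4001 genes (17.6%), 2159 higher and 1842 lower. In all 48 called genes the 3 rrp6l1-2 libraries did not overlap the 3 WT libraries, which was also so for 21.9% of all genes tested. With the replicate number as a block, 148 genes were called (0.649%), 89 higher (0.390%) and 59 lower (0.259%), and they included all 48. Leaving out 1 library at a time gave fewer calls for 4 of the 6: 16 without WT replicate 3, 18 without rrp6l1-2 replicate 3, 20 without WT replicate 1 and 30 without rrp6l1-2 replicate 1. The other left-out libraries gave 53 (rrp6l1-2 replicate 2) and 71 (WT replicate 2), and 15 of the 48 genes were called in all 6 of these fits. With only the 6 compared libraries in the fit, 14 of the 47 called genes with a value kept their calls. With the block added to that fit, 9 of the 47 did.

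**Figure D1:**
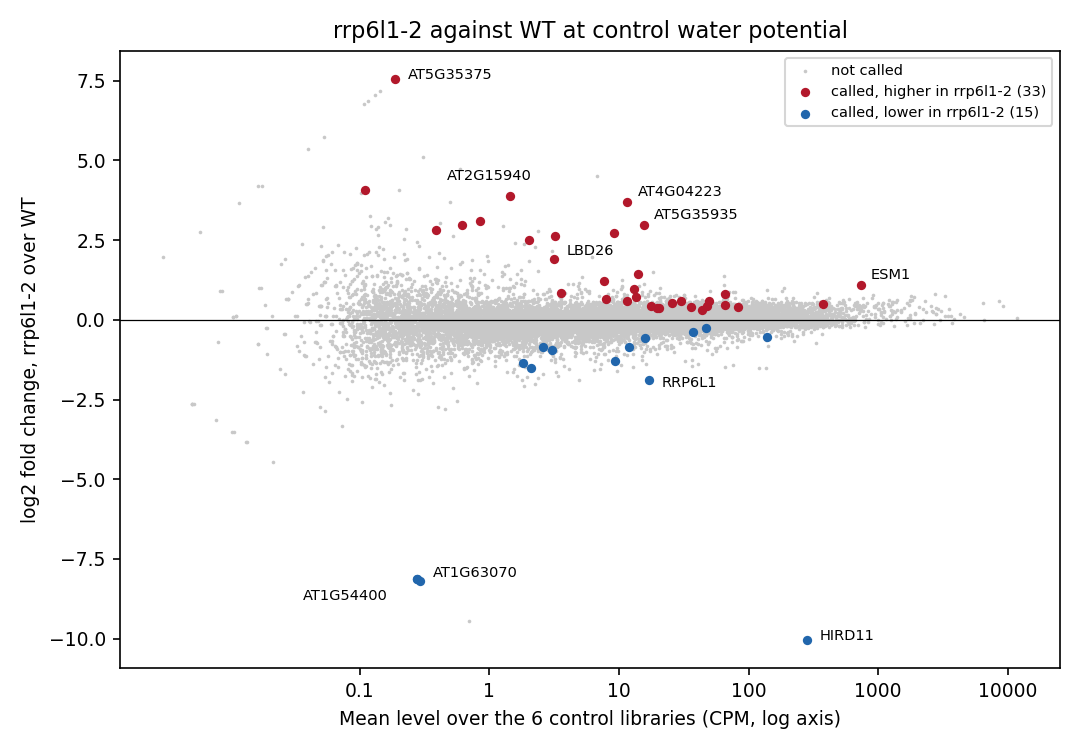
Log2 fold change of rrp6l1-2 over WT in unstressed seedlings (vertical axis) against the mean level over the 6 libraries in CPM (horizontal axis, log scale), 1 point per tested gene with reads in these libraries. Called genes are coloured: 33 lie above 0 and 15 below it, with HIRD11 lowest at -10.03.

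RRP6L1 (AT1G54440, chromosome 1, 20322964 to 20328238 in assembly TAIR10.1, plus strand) was measured first, since it checks the labels. Its level was 5.63, 7.09 and 8.97 CPM in rrp6l1-2, against 27.5, 28.0 and 25.3 CPM in WT. Every mutant library lay well below every WT library, and 1256 reads remained over the 3 mutant libraries against 5128 in WT. The log2 fold change was -1.90 (SE 0.16, adjusted p = 1.82e-05), which is 3.72-fold lower in rrp6l1-2. The deposited counts are per gene, so where along the transcript the remaining reads fall is not known from them.

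HIRD11 (AT1G54410, 20309473 to 20310850, minus strand) lies upstream of RRP6L1, with only AT1G54420 and AT1G54430 annotated between them. It encodes a dehydrin, a hydrophilic protein of the group that protects other proteins and membranes during water loss. Its level was 0.494, 0.478 and 0.656 CPM in rrp6l1-2, against 598, 542 and 567 CPM in WT. No library of either group came near the other, and the log2 fold change was -10.03 (SE 1.00, adjusted p = 0.00044), a level 1048-fold lower in rrp6l1-2. Next to it, AT1G54400 (20307572 to 20308846, plus strand), which encodes an HSP20-like chaperone, had 0 reads in every rrp6l1-2 library, against 0.546, 0.526 and 0.596 CPM in WT, 106 reads in all. Against the floor of 3 reads over the rrp6l1-2 group it was at least 32.3-fold lower (adjusted p = 0.000243). That call was not kept when only the 6 compared libraries entered the fit, where spread is estimated from fewer libraries.

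Because these 2 neighbours were at or near 0 although neither is the gene named in the line's label, the 250 bases before their annotated starts in RefSeq's TAIR10.1 are shown, 5′ to 3′ on the strand of each gene. Capitals mark ACGTG, the core of the element bound by ABA-responsive bZIP factors, and TATAAA, each searched on both strands. The window of HIRD11 is chr1:20310851-20311100 on the minus strand and that of AT1G54400 is chr1:20307322-20307571 on the plus strand.
HIRD11: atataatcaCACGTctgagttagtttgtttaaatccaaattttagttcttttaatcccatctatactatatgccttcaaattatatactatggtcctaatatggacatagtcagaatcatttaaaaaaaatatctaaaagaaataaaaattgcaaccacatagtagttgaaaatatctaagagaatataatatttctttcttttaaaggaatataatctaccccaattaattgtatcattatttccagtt
AT1G54400: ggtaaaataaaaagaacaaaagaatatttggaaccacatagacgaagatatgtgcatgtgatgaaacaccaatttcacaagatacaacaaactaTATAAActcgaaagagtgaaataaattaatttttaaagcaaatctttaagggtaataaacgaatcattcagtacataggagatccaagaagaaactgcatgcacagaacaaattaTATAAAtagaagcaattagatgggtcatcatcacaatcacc
The HIRD11 window holds 1 ACGTG and 0 TATAAA, and the AT1G54400 window 0 ACGTG and 2 TATAAA, of which the nearer begins 41 bases before the start. Of the 27443 windows of 250 bases before protein-coding nuclear genes, 22.9% hold ACGTG and 47.3% hold TATAAA. The matches describe the letters in these windows, and the files say nothing of what binds there.

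On the other side of RRP6L1, AT1G54450 (20336203 to 20339769, minus strand), an EF-hand calcium-binding protein, was higher in the mutant. Its level was 9.81, 10.0 and 9.21 CPM in rrp6l1-2, against 6.41, 6.45 and 5.70 CPM in WT, without overlap. The log2 fold change was 0.65 (SE 0.11, adjusted p = 0.0249), and the call was lost in 5 of the 6 fits that left out a library, with adjusted p up to 0.149 over all alternatives tried. Between these 2 genes, AT1G54445 (20332149 to 20332970, plus strand), a short gene of unknown function, had 45 reads in rrp6l1-2, with some in each library, and 0 in WT. It did not pass the filter and has no test, and its level was at least 16.4-fold higher in rrp6l1-2 against the floor of 3 reads over the WT group.

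The remaining annotated genes among the 5 on each side showed no call. AT1G54420 and AT1G54430 had 0 reads in both groups. ING2, a PHD-finger protein, had 25.8, 24.0 and 23.1 CPM in rrp6l1-2, against 23.9, 24.5 and 24.9 CPM in WT (adjusted p = 0.964). XRN4, the cytoplasmic 5′ to 3′ exoribonuclease, had 62.7, 62.2 and 64.9 CPM in rrp6l1-2, against 61.2, 64.6 and 67.0 CPM in WT (adjusted p = 0.876). AT1G54460, of the TPX2 family, had an adjusted p of 0.84, and RPP27, a gene known for downy mildew resistance, one of 0.678. Within 50 kb of the start of RRP6L1, 4 of 23 tested genes were called (17.4%), and widening the window to 1 Mb added none, giving 4 of 432 (0.926%). Within 2 Mb there were 5 of 781 (0.64%), the added one being the pseudogene AT1G58561. Beyond 50 kb of RRP6L1, called genes lay on all 5 chromosomes, and their share of the tested genes was 0.118% on chromosome 1 and between 0.176% and 0.249% on the others.

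**Figure D2:**
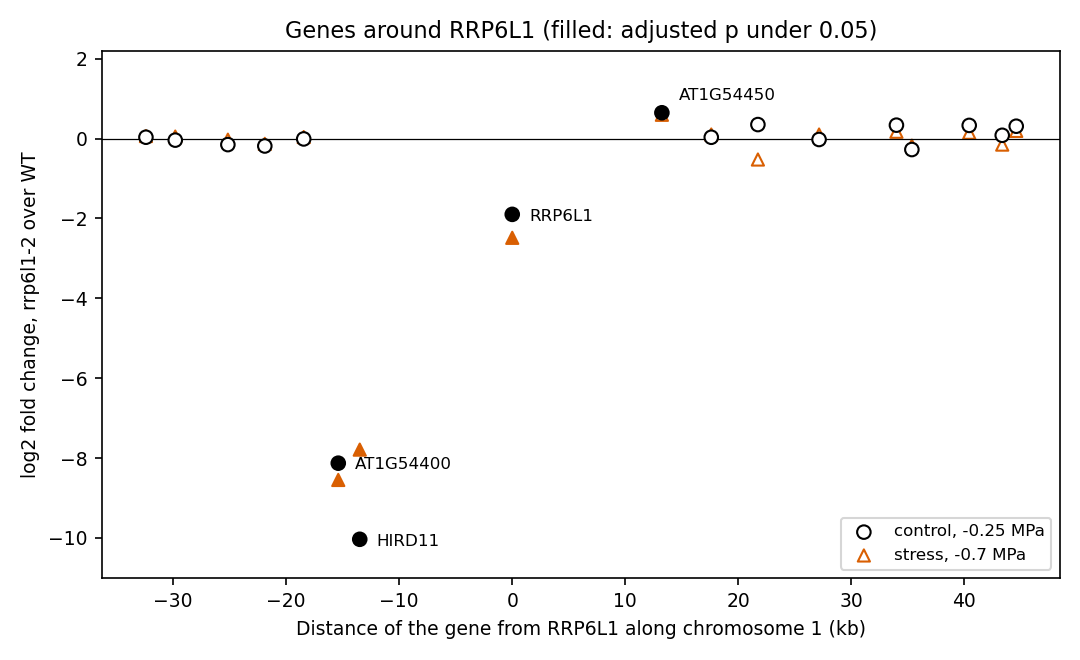
Log2 fold change of rrp6l1-2 over WT (vertical axis) against distance in kb from the annotated start of RRP6L1 (horizontal axis) for the tested genes among the 10 loci on each side, with control libraries as circles and stress libraries as triangles, filled where the adjusted p was under 0.05. RRP6L1, HIRD11 and AT1G54400 lie far below 0 under both treatments and AT1G54450 lies above 0, at 0.65 under control and 0.60 under stress, while the others, none of them called, lie between -0.52 and 0.35.

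By annotation class, the calls took in 7 of 251 pseudogenes (2.79%) and 2 of 141 genes annotated as ncRNA (1.42%), against 38 of 21625 protein-coding genes (0.176%). Among the other noncoding classes, 0 of 193 lncRNA genes, 0 of 208 transcribed pseudogenes, 0 of 61 miRNA genes and 0 of 43 snoRNA genes were called. The median log2 fold change was -0.06 over all tested pseudogenes and -0.09 over the ncRNA genes, against -0.02 over all genes, so the classes as a whole did not stand higher in rrp6l1-2. Their read counts are lower, with a median over genes of 0.859 CPM for pseudogenes against 16.9 CPM for protein-coding genes. Comparisons between annotation classes were chosen after the values were seen and carry no test.

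AT5G35935 (chromosome 5, 14083388 to 14089891, minus strand), a pseudogene, had 28.8, 27.4 and 26.1 CPM in rrp6l1-2, against 3.91, 2.60 and 4.00 CPM in WT. The groups were far apart, and the log2 fold change of 2.97 (SE 0.17) had the smallest adjusted p of the comparison, 1.63e-07. AT3G29120 (chromosome 3, 11098505 to 11099198, plus strand), a short pseudogene, had 5.59, 6.33 and 4.72 CPM in rrp6l1-2, against 0.925, 1.102 and 0.690 CPM in WT. Its log2 fold change was 2.61 (SE 0.17, adjusted p = 6.34e-07), again with no overlap, and up to 20.5% of its reads in a library mapped to more than 1 place. Both loci were also high in ahl10-1, with 32.5, 28.5 and 27.1 CPM for AT5G35935 and 5.09, 4.63 and 4.73 CPM for AT3G29120. Between the mutants they did not differ at this precision, with log2 fold changes of rrp6l1-2 over ahl10-1 of -0.10 (adjusted p = 0.884) and 0.20 (adjusted p = 0.781).

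AT4G04223 (chromosome 4, 2036511 to 2037816, plus strand), an ncRNA gene, had 23.2, 20.6 and 20.5 CPM in rrp6l1-2, against 1.76, 2.22 and 1.00 CPM in WT. The mutant libraries were close together and far above WT, with a log2 fold change of 3.69 (SE 0.45, adjusted p = 0.00227). Up to 12.5% of the AT4G04223 reads in a library mapped to more than 1 place. AT5G38005 (chromosome 5, 15155067 to 15156088, plus strand), the other ncRNA gene called, had 13.9, 16.5 and 17.6 CPM in rrp6l1-2, against 2.58, 2.11 and 2.64 CPM in WT. It rose by 2.71 (SE 0.23, adjusted p = 1.6e-05). In ahl10-1 both had levels between the other groups: 6.39, 11.4 and 3.47 CPM for AT4G04223, and 5.70, 6.75 and 3.67 CPM for AT5G38005. The difference between the mutants passed the test for AT5G38005, with a log2 fold change of rrp6l1-2 over ahl10-1 of 1.57 (adjusted p = 0.00311), and not for AT4G04223, with 1.60 (adjusted p = 0.4).

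AT2G15940, a pseudogene, rose by 3.87 (SE 0.55, adjusted p = 0.00446), with 4.92, 1.02 and 2.15 CPM in rrp6l1-2, against 0.288, 0.132 and 0.126 CPM in WT. Its mutant libraries differed among themselves more than those of the loci above, and each still exceeded every WT library. The pseudogenes AT4G01980 (log2 fold change 3.09, adjusted p = 0.0146) and AT1G58561 (0.96, adjusted p = 0.0162) were higher too, and both overlap another annotated gene. Up to 15.4% and 14.7% of their reads in a library mapped to several places. Each of these 2 calls was lost in 3 of the 6 fits that left out a library. AT5G28263, a pseudogene, fell by 1.51 (SE 0.15, adjusted p = 0.000139), with 1.09, 0.988 and 1.19 CPM in rrp6l1-2, against 3.41, 3.08 and 2.81 CPM in WT. Its call was lost by limma on log2(RPKM + 0.1) and log2(RPKM + 0.5). The mean RPKM of this locus was 0.0629 in rrp6l1-2 and 0.191 in WT, both below the larger amount added. Up to 52.1% of its reads in a library mapped to several places, so its value depends on how the authors shared those reads out. Of the 48 called genes, 6 had over 10% such reads in at least 1 library and 11 overlap another annotated gene. The kit marks strand, but how strand was used in counting is not given in the sources used here. Reads of the overlapping pairs therefore cannot be assigned with certainty. Among the genes described below, this holds for AT5G26270, THIC, AT2G40435, SCAMP4, AT4G31290 and AT1G23935.

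Some loci had reads in every library of one group and none in the other. AT1G63070, a pentatricopeptide-repeat (PPR) protein of the kind that binds organelle RNA, had 0 reads in rrp6l1-2, against 0.364, 0.789 and 0.596 CPM in WT, 110 reads in all, so that it was at least 33.5-fold lower (adjusted p = 0.0203). The pseudogene AT3G28915 had 0 reads in rrp6l1-2 and 105 in WT, at least 32.0-fold lower (adjusted p = 0.0448). In ahl10-1, AT1G63070 had 2 reads and AT3G28915 had 0, so the near-absence of both was shared by the 2 mutant lines. In the opposite direction, AT5G35375, an uncharacterized gene, had 65 reads in rrp6l1-2 and 0 in WT, at least 23.7-fold higher (adjusted p = 0.0228), with 9 in ahl10-1. AT1G26762, also uncharacterized, had 36 reads in rrp6l1-2 against 2 in WT, a ratio of 19.7 with a 95% exact interval of 5.07 to 169 that covers counting error only (adjusted p = 0.029). These calls rest on few reads: AT3G28915 was lost in all 6 fits that left out a library, AT5G35375 in 4, and AT1G63070 and AT1G26762 in 3 each.

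**Figure D3:**
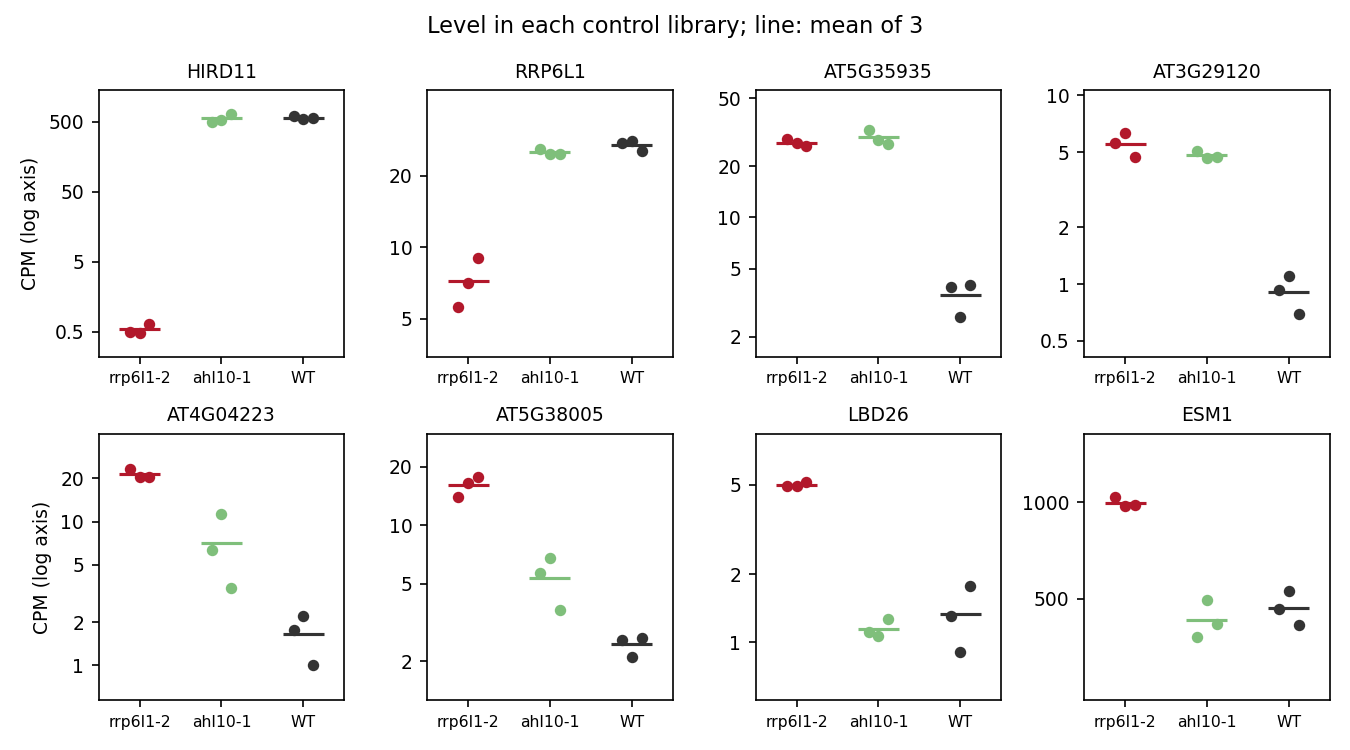
Level in CPM of each unstressed library (points, with a line at the group mean, n = 3 each) of rrp6l1-2, ahl10-1 and WT for RRP6L1, HIRD11 and 6 further called genes. For AT5G35935 and AT3G29120 the ahl10-1 points lie with rrp6l1-2, for LBD26, ESM1, RRP6L1 and HIRD11 they lie with WT, and for AT4G04223 and AT5G38005 they lie between.

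LBD26 (chromosome 3, 10373251 to 10376480) was among the protein-coding genes that rose most. Its level was 4.90, 4.94 and 5.12 CPM in rrp6l1-2, against 1.30, 0.905 and 1.77 CPM in WT. The mutant libraries were nearly equal and lay above all of WT, with a log2 fold change of 1.91 (SE 0.22, adjusted p = 0.00044). LOB-domain factors are plant-specific regulators of organ boundaries and other developmental steps. AT3G54730, annotated as a transcription repressor, had 2.28, 5.58 and 2.41 CPM in rrp6l1-2, against 0.607, 0.839 and 0.377 CPM in WT (log2 fold change 2.49, SE 0.45, adjusted p = 0.0312). Its call was lost in 4 of the 6 fits that left out a library, and up to 35.1% of its reads in a library mapped to several places.

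ESM1 (chromosome 3, 4729399 to 4731847), a protein of the GDSL lipase family, promotes isothiocyanate over nitrile formation when glucosinolates, the mustard-oil precursors, are broken down. Its level was 1036, 976 and 978 CPM in rrp6l1-2, against 464, 531 and 413 CPM in WT. All 3 mutant libraries lay above all of WT, with a log2 fold change of 1.09 (SE 0.14, adjusted p = 0.00227), and its call was kept in all 6 fits without a library. In ahl10-1 it had 381, 494 and 418 CPM, overlapping WT, and rrp6l1-2 exceeded ahl10-1 by 1.21 (adjusted p = 0.000927). ESM1 was the only one of the 26 tested glucosinolate genes to be called, and the median log2 fold change of the list was -0.09. ESP, the protein that ESM1 works against, had 14.4, 10.1 and 18.5 CPM in rrp6l1-2, against 8.31, 10.3 and 8.61 CPM in WT, with overlapping groups (log2 fold change 0.66, adjusted p = 0.133).

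AT5G24155, AT5G26270 and THIC rose as well. AT5G24155, of an FAD/NAD(P)-binding oxidoreductase family, had 10.9, 9.53 and 11.7 CPM in rrp6l1-2, against 4.11, 5.39 and 4.28 CPM in WT (log2 fold change 1.22, SE 0.13, adjusted p = 0.000243). The groups were clearly apart, and the call was kept in all 6 fits without a library. AT5G26270, an uncharacterized gene, behaved alike, with 22.1, 18.7 and 20.2 CPM in rrp6l1-2, against 9.20, 7.01 and 6.43 CPM in WT (log2 fold change 1.43, SE 0.19, adjusted p = 0.00243). THIC, which makes the pyrimidine part of thiamine in the chloroplast, had 415, 440 and 461 CPM in rrp6l1-2, against 302, 334 and 297 CPM in WT (log2 fold change 0.50, SE 0.08, adjusted p = 0.019). The THIC call ended without rrp6l1-2 replicate 3, without WT replicate 1 and without WT replicate 3, one at a time.

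Cytochrome P450 enzymes, which oxidise hormones and specialised metabolites, made up 5 of the called genes. This family was picked out after the values were seen: 5 of its 194 tested members were called (2.58%), against 0.211% of all genes, 4 higher and 1 lower. Its median log2 fold change was 0.12, against -0.02 over all genes. CYP706A6 had 82.3, 79.7 and 86.3 CPM in rrp6l1-2, against 44.2, 53.6 and 45.3 CPM in WT (log2 fold change 0.80, SE 0.12, adjusted p = 0.012). CYP71A25 rose by 0.71 (adjusted p = 0.0453), CYP71B19 by 0.60 (adjusted p = 0.012) and CYP72A8 by 0.53 (adjusted p = 0.033). CYP71A27 was the one that fell, with 4.73, 5.17 and 6.40 CPM in rrp6l1-2, against 12.7, 10.7 and 16.5 CPM in WT (log2 fold change -1.29, SE 0.25, adjusted p = 0.0453). None of these 5 calls was kept in all 6 fits without a library, and without WT replicate 3 all 5 were lost.

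The called genes with small changes included AT2G40435, MED8, LSF2 and ABH1. AT2G40435, annotated as a SCREAM-like transcription factor, had 4.78, 4.42 and 4.61 CPM in rrp6l1-2, against 2.44, 2.48 and 2.75 CPM in WT (log2 fold change 0.85, SE 0.12, adjusted p = 0.00519). MED8, a subunit of the Mediator complex that links transcription factors to RNA polymerase II, had 22.4, 22.5 and 22.0 CPM in rrp6l1-2, against 17.1, 16.3 and 17.8 CPM in WT (log2 fold change 0.38, SE 0.07, adjusted p = 0.0249). LSF2, a phosphatase that removes phosphate from starch, had 42.8, 39.4 and 40.6 CPM in rrp6l1-2, against 31.4, 31.1 and 31.3 CPM in WT (log2 fold change 0.39, SE 0.07, adjusted p = 0.0281). None of the 3 had overlapping groups. ABH1, the large subunit of the nuclear cap-binding complex, is named for the hypersensitivity of its mutant to the stress hormone abscisic acid. It had 43.0, 44.9 and 41.3 CPM in rrp6l1-2, against 50.5, 51.5 and 52.0 CPM in WT, a fall of 0.25 (SE 0.05, adjusted p = 0.0281), the smallest change called. The calls of MED8, LSF2 and ABH1 were each lost in 5 or 6 of the 6 fits without a library, and on library sizes without TMM they were lost as well, while that of AT2G40435 was kept in both.

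Further genes that fell encode an alpha/beta-hydrolase, AT1G74290, with a log2 fold change of -1.36 (adjusted p = 0.00446), and SCAMP4, a secretory carrier membrane protein. SCAMP4 had 9.07, 8.50 and 8.19 CPM in rrp6l1-2, against 15.0, 14.6 and 16.6 CPM in WT (log2 fold change -0.85, SE 0.14, adjusted p = 0.0146). AT4G31290, of the ChaC-like family whose members break down glutathione, had 114, 122 and 102 CPM in rrp6l1-2, against 182, 167 and 140 CPM in WT (log2 fold change -0.54, SE 0.09, adjusted p = 0.0268). The loci AT1G23935 and AT1G23940 fell by 0.96 (adjusted p = 0.0453) and 0.85 (adjusted p = 0.0228), AT5G25475, a B3-domain factor, by 0.57 (adjusted p = 0.0453), and AT5G46840, an RNA-recognition-motif protein, by 0.38 (adjusted p = 0.0448). Of these 7 genes, AT1G74290 alone was called in all 6 fits without a library. AT1G23940 was the 1 called locus without a match in the annotation. Whether it overlaps AT1G23935 was therefore not examined.

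The other parts of the exosome were not called. Of the 22 exosome and cofactor genes tested, RRP6L1 was the only one called, 4 were lower at an unadjusted p under 0.05, RRP6L1 included, against 8.08% of all genes, and the median log2 fold change was -0.08. RRP6L2, its closest relative in the nucleus, had 55.2, 56.2 and 52.5 CPM in rrp6l1-2, against 56.5, 57.6 and 58.8 CPM in WT (log2 fold change -0.08, SE 0.06, adjusted p = 0.513). RRP6L3, the cytoplasmic relative, had an adjusted p of 0.862, and the helicases MTR4 and HEN2, which feed RNA to the nuclear exosome, had 0.386 and 0.56. Of 19 genes of other RNA decay routes and 27 of the DNA methylation machinery none was called, with medians of -0.02 and -0.10. At an unadjusted p under 0.05, 1 of the decay genes was higher and 1 lower, and 1 of the methylation genes was higher and 5 lower. Of 6 loci known as targets of silencing by DNA methylation, 5 were tested and none was called. Their median log2 fold change was 0.32, and 4 were positive, against 45.7% of all genes. At an unadjusted p under 0.05, 1 was higher, against 9.47% of all genes. The 6 loci summed to 8.99 to 9.42 CPM in rrp6l1-2, against 6.29 to 8.355 CPM in WT, without overlap. SDC, one of them, had 0.229, 0.430 and 0.875 CPM in rrp6l1-2, against 0.470, 0.428 and 0.330 CPM in WT (adjusted p = 0.776), and FWA had 27 reads against 6 (adjusted p = 0.216). FLC had 5.68, 4.81 and 5.85 CPM in rrp6l1-2, against 7.66, 4.23 and 6.20 CPM in WT, with overlapping groups (log2 fold change -0.15, SE 0.28, adjusted p = 0.827).

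Dehydrins other than HIRD11 were not called. Of the 9 tested, the median log2 fold change was -0.07, and ERD14 had 311, 271 and 280 CPM in rrp6l1-2, against 358, 274 and 301 CPM in WT (adjusted p = 0.672). Of the 15 dehydration and abscisic acid response genes none was called. Their log2 fold changes ran from -2.01 to 0.81 with a median of 0.08, and 10 were positive, against 45.7% of all genes. At an unadjusted p under 0.05, 2 of the 15 were higher, against 9.47% of all genes, too few genes to tell from that share. RD29A, the standard marker of dehydration, had 24.0, 19.4 and 20.4 CPM in rrp6l1-2, against 13.4, 9.87 and 13.3 CPM in WT, without overlap (log2 fold change 0.81, SE 0.21, adjusted p = 0.12). RD22 had 183, 155 and 186 CPM in rrp6l1-2, against 120, 135 and 119 CPM in WT (log2 fold change 0.49, adjusted p = 0.106). HAI2, a clade A protein phosphatase that acts in abscisic acid signalling, was low in both groups, with 0.265, 0.255 and 0.237 CPM in rrp6l1-2, against 0.682, 0.592 and 0.518 CPM in WT (log2 fold change -1.24, adjusted p = 0.141), and was called only with the replicate block (adjusted p = 0.0442). Of the 9 tested genes of that clade, 5 had positive log2 fold changes, and the median was 0.04.

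Over 36 lists of 632 loci drawn from general knowledge, 3 loci were called: RRP6L1, HIRD11 and ESM1. With the replicate block 9 were, the added ones being AHL7 and HAI2 as lower and SQD2, APR2, NRT2.1 and HSP70-4 as higher. The lists below are therefore described by values that did not pass edgeR's test over all genes in the main fit. Over all genes tested, 45.7% had a positive and 54.3% a negative log2 fold change, and at an unadjusted p under 0.05, 9.47% were higher and 8.08% lower. Of the 28 AHL genes tested, which encode AT-hook DNA-binding proteins, 26 had a negative log2 fold change, with a median of -0.23, and 14 had an unadjusted p under 0.05, all lower, where 54.3% of all genes were negative and 8.08% lower at that p. AHL7 had 4.92, 5.29 and 4.78 CPM in rrp6l1-2, against 8.23, 6.20 and 8.55 CPM in WT (log2 fold change -0.62, SE 0.14, adjusted p = 0.0801, and 0.0477 with the block). AHL1 had 14.9, 16.6 and 15.8 CPM in rrp6l1-2, against 23.0, 19.0 and 24.3 CPM in WT (adjusted p = 0.0803). AHL10, the gene disrupted in the other mutant, had 39.0, 40.2 and 36.9 CPM in rrp6l1-2, against 46.1, 46.5 and 45.1 CPM in WT (log2 fold change -0.25, adjusted p = 0.142). In each of these 3 genes the groups did not overlap.

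Genes of nitrogen and sulfur uptake leaned the other way without passing edgeR's test in the main fit. Of 16 nitrate genes, 8 had higher levels at an unadjusted p under 0.05 and 1 lower, against 9.47% higher and 8.08% lower of all genes, and the median log2 fold change was 0.23. NRT2.1, the high-affinity nitrate transporter, had 1.71, 3.91 and 5.03 CPM in rrp6l1-2, against 0.591, 1.68 and 1.44 CPM in WT (log2 fold change 1.52, SE 0.48, adjusted p = 0.148, and 0.0445 with the block). APR2, a reductase of sulfate assimilation, had 342, 297 and 329.6 CPM in rrp6l1-2, against 204, 267 and 195 CPM in WT (log2 fold change 0.54, adjusted p = 0.102, and 0.0477 with the block). The median of the 14 sulfur starvation genes was 0.26. SQD2, which makes sulfolipid when phosphate is short, had an adjusted p of 0.0789, and 0.0442 with the block. The authors' deposited table of the same comparison has 4.17% of its genes under 0.05. Its adjusted p is 0.0351 for NRT2.1, 0.00658 for APR2 and 0.00201 for SQD2.

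Growth genes were not called either. Of 27 cell cycle genes, 8 were lower and 1 higher at an unadjusted p under 0.05, against 8.08% lower and 9.47% higher of all genes, and the median log2 fold change was -0.14. CDKB1;2, a kinase of dividing cells, had 6.81, 7.70 and 6.67 CPM in rrp6l1-2, against 9.49, 9.03 and 9.23 CPM in WT (log2 fold change -0.39, adjusted p = 0.0678). Of 15 ribosome biogenesis genes, 5 were lower and none higher at an unadjusted p under 0.05, with a median of -0.16. Of 28 genes of the primary wall and growth, 4 were higher and 4 lower at that p, with a median of 0.07. On library sizes without TMM the median of all genes moves from -0.02 to -0.12, so list medians of this size depend on the scaling.

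**Figure D4:**
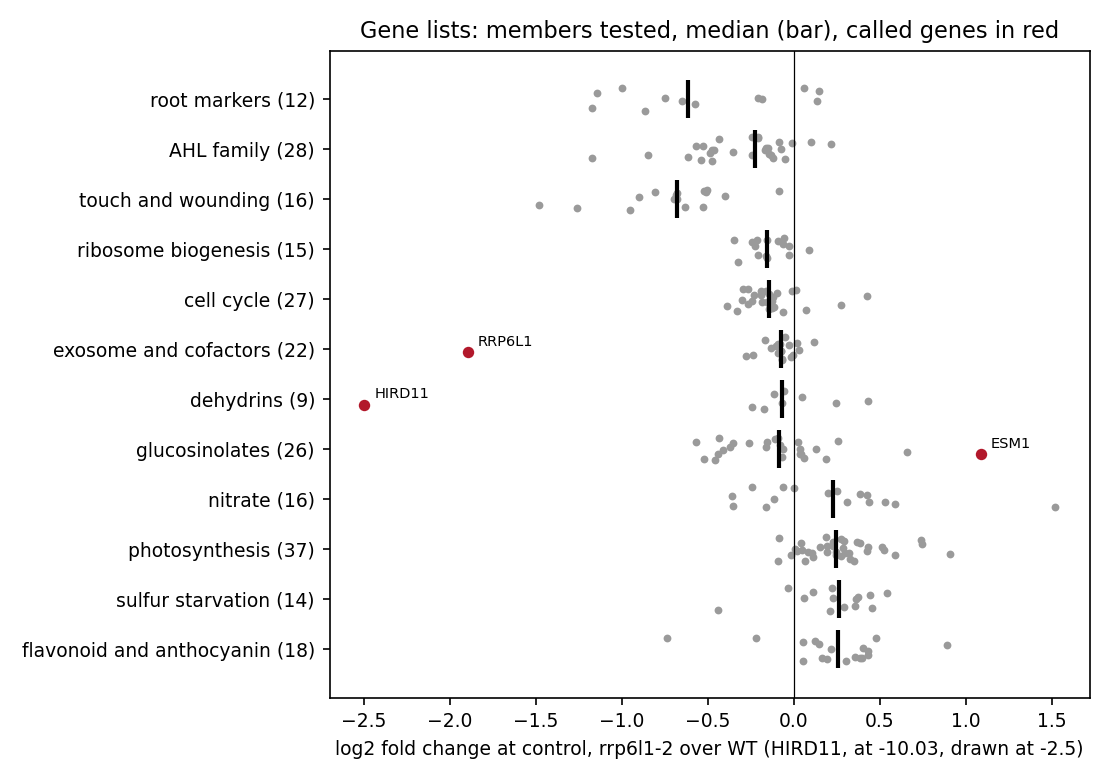
Log2 fold change of rrp6l1-2 over WT in unstressed seedlings for each tested member of 12 gene lists (points), with a bar at the list's median and called genes in red. HIRD11 is drawn at the lower edge because it lies beyond the axis, and only RRP6L1, HIRD11 and ESM1 are red.

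Markers of organs and of handling were read in the same libraries. Of 12 root markers, 8 were lower at an unadjusted p under 0.05, against 8.08% of all genes, and none was called, with a median log2 fold change of -0.61. The summed root marker level was 109.9, 123 and 126 CPM in rrp6l1-2, against 129, 113 and 166 CPM in WT, so the sums overlapped, and all 12 markers had reads. PLT1, a factor of the root stem cell niche, had 2.12, 2.79 and 1.59 CPM in rrp6l1-2, against 4.75, 3.65 and 6.28 CPM in WT (log2 fold change -1.17, adjusted p = 0.116). SCR, a marker of the root ground tissue, had an adjusted p of 0.672. Of 12 shoot markers, none was called, 1 was higher and 2 lower at an unadjusted p under 0.05, and the median log2 fold change was 0.01. Their summed level was 22352, 21509 and 28171 CPM in rrp6l1-2, against 18322, 20397 and 14668 CPM in WT. Nearly all of it came from 3 members that are also on the photosynthesis list, and the other 9 summed to 213, 191 and 183 CPM in rrp6l1-2, against 192, 206 and 173 CPM in WT, with overlap. STM, which keeps the shoot meristem, had 2.05, 2.79 and 1.48 CPM in rrp6l1-2, against 9.22, 8.14 and 5.88 CPM in WT (log2 fold change -1.88, SE 0.61, adjusted p = 0.156). In ahl10-1, STM ranged between 1.88 and 15.3 CPM. Of 37 photosynthesis genes, 34 had positive log2 fold changes, against 45.7% of all genes (median 0.25, none called). The 37 summed to 129510, 95929 and 142630 CPM in rrp6l1-2, against 112660, 105200 and 90866 CPM in WT, with overlap. In 3 of the 37 the groups were separate and rrp6l1-2 higher, against 10.8% of all genes. At an unadjusted p under 0.05, 5 were higher, against 9.47% of all genes. RCA, the activase of Rubisco, had 9162, 9782 and 12010 CPM in rrp6l1-2, against 6866, 8378 and 5312 CPM in WT (adjusted p = 0.237). Whether the share of root and shoot tissue in the harvested seedlings bears on the called genes was not tested.

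Touch and wounding genes, which respond within minutes to handling, varied between libraries of both groups. Their summed level was 939.7, 231 and 1181 CPM in rrp6l1-2, against 2523, 372 and 798 CPM in WT. All 16 had negative log2 fold changes with a median of -0.68, yet none had an unadjusted p under 0.05, and no groups were separated. The second library was the lowest of its group in both genotypes. Seed storage genes had summed levels of 16.2, 30.5 and 2.13 CPM in rrp6l1-2, against 1.55, 3.08 and 2.79 CPM in WT. CRA1, a seed storage globulin, had 12.9, 25.5 and 0.365 CPM in rrp6l1-2, against 0.258, 0.773 and 0.690 CPM in WT, so rrp6l1-2 replicate 3 lay within the WT range and the other two above it (adjusted p = 0.136). SESA1 and SESA3, on the list of 11 seed storage genes, had 0 reads in both groups.

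The stress libraries share no sample with the unstressed ones, so they measure the difference between rrp6l1-2 and WT a second time, under another treatment. There 19 genes were called (0.0834%), 14 higher (0.0614%) and 5 lower (0.0219%), and 860 had an unadjusted p under 0.05 (3.77%). All 48 genes called in unstressed seedlings had the same sign under stress, as did 70.4% of all genes tested, 17 were called again, and in 45 the stress libraries did not overlap in the same direction. Of all 5002 genes without overlap in unstressed seedlings, 29.8% were so under stress. Of the 23 genes that changed at least 2-fold, 16 were called under stress, and of the other 25 only MED8 was, with a log2 fold change of 0.52 (adjusted p = 0.00144). The genes that rose had a median log2 fold change of 0.53 under stress against 0.85 in unstressed seedlings. The genes that fell had -0.93 under stress against -1.29. All 48 were chosen by their unstressed values, so these medians and counts cannot show whether the effect is weaker under stress.

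RRP6L1 had 3.67, 5.09 and 6.44 CPM in stressed rrp6l1-2, against 27.9, 29.1 and 28.0 CPM in stressed WT (log2 fold change -2.48, adjusted p = 6.97e-07). HIRD11 had 0.459, 0.230 and 7.66 CPM in stressed rrp6l1-2, against 602, 607 and 634 CPM in stressed WT, so stress replicate 3 of the mutant stood apart from its group while remaining far below WT. ESM1 had 855, 879.8 and 752 CPM in stressed rrp6l1-2, against 279, 398 and 411 CPM in stressed WT (log2 fold change 1.19, adjusted p = 0.000962). LBD26 rose by 1.88 (adjusted p = 0.000612), AT4G04223 by 3.80 (adjusted p = 0.00144) and AT5G38005 by 2.37 (adjusted p = 7e-05). Among the 31 calls of unstressed seedlings that were not made under stress was AT5G24155, which had 10.6, 11.9 and 11.3 CPM in stressed rrp6l1-2, against 8.12, 8.47 and 8.17 CPM in stressed WT (log2 fold change 0.45, adjusted p = 0.682). RD29A, not called in either treatment, had a log2 fold change of 0.00 under stress. A test of the difference between the 2 contrasts called 0 genes by edgeR, with 383 at an unadjusted p under 0.05 (1.68%), and 1 by DESeq2. By edgeR, then, no gene named here had a difference between treatments that passed the test over all genes. For AT5G24155 the difference was -0.78, at an unadjusted p of 0.000606 by edgeR.

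**Figure D5:**
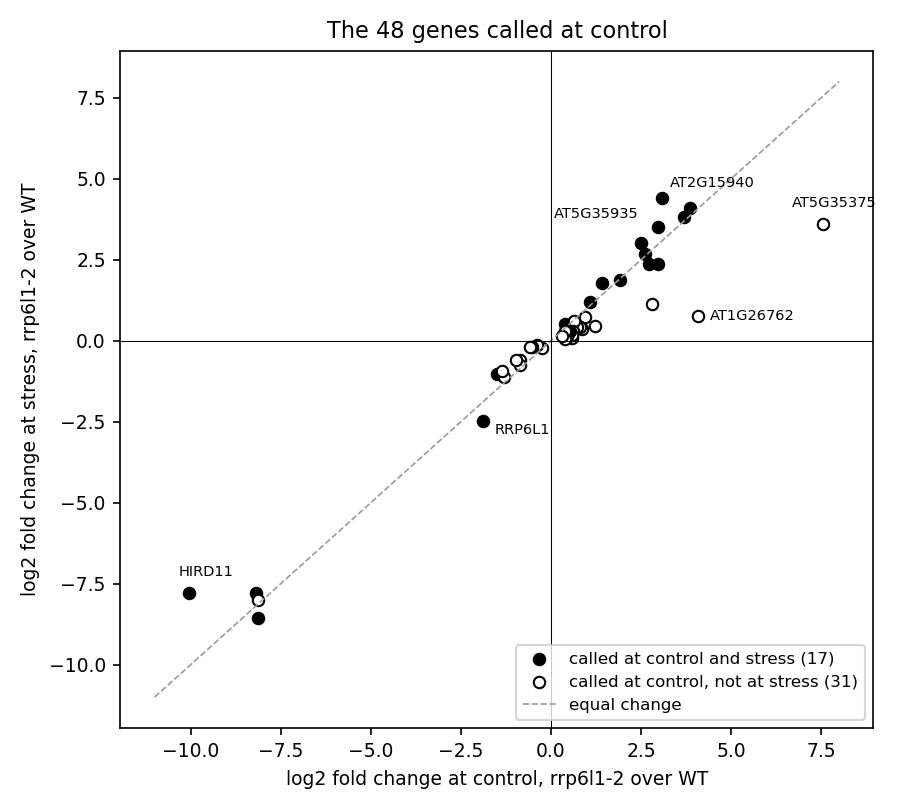
Log2 fold change of rrp6l1-2 over WT under stress (vertical axis) against that in unstressed seedlings (horizontal axis) for the 48 genes called in unstressed seedlings, filled where the stress contrast was called as well. The 17 filled and 31 open points all lie in the quadrants where the signs match, and the open points lie mostly near the origin.

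The unstressed ahl10-1 libraries allow a comparison of the 2 mutant lines without WT. It uses the same rrp6l1-2 libraries by which the 48 genes were called, so its counts over these genes are a description. Of the 48 genes, 15 differed between rrp6l1-2 and ahl10-1 at an adjusted p under 0.05, in a comparison that called 19 genes in all (0.0834%). Among the 15 were RRP6L1, HIRD11, AT1G54400, ESM1, LBD26, AT5G38005, AT2G15940 and ABH1, whose log2 fold change of rrp6l1-2 over ahl10-1 was -0.26 (adjusted p = 0.0407). For HIRD11 the ahl10-1 libraries had 501, 533 and 649.9 CPM, as WT had. The contrast of ahl10-1 with WT uses the same 3 WT libraries, and it called 6 genes (0.0263%). Only AT5G35935 and AT3G29120 of the 48 were among them, with log2 fold changes over WT of 2.97 in rrp6l1-2 and 3.07 in ahl10-1 for AT5G35935, and of 2.61 in rrp6l1-2 and 2.41 in ahl10-1 for AT3G29120.

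The authors' deposited table of the same comparison gives an adjusted p for 21437 genes and has 893 under 0.05 (4.17%), 607 higher and 286 lower. Of these, 16 changed at least 2-fold by that table. Its log2 fold changes can be much smaller than those here, such as 0.82 against 3.87 for AT2G15940. The count of 2-fold changes is therefore not on the scale used here. Of the 48 genes called here, 46 are under 0.05 in the authors' deposited table with the same direction, and the other two, AT1G26762 and AT5G35375, have no adjusted p there. DESeq2 run here on the rounded counts called 804 genes.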

How the data were processed

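The 18 tables hold, per the file headers, the expected counts of reads per gene deposited by the authors for 33602 loci, the deposited RPKM, the deposited fraction of multi-mapped reads per gene, and gene length in kilobases (other). Between 3.92% and 4.19% of the counts of the 6 compared libraries are not whole. The submitters' processing notes list Bowtie2, DESeq2, CASAVA, bcl2fastq 1.8.4 and the build TAIR10, with no roles. Which counter was used, and with which strand setting, is not given in the sources used here. The authors' deposited comparison table has columns of log2 fold changes and adjusted p-values, per the file headers.

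Counts were rounded and tested in R 4.3.3 with edgeR 4.0.16 (TMM, filterByExpr by group, robust glmQLFit, glmQLFTest), with all 18 libraries, 6 group means and 12 residual degrees of freedom. The biological coefficient of variation was 14.4%. DESeq2 1.42.0, limma 3.58.1 on log2(RPKM + 0.1) and log2(RPKM + 0.5), other scalings and filters, left-out libraries and a replicate block were alternatives. The fit was also run on simulated counts that held no effect shared by a replicate number. That run therefore cannot show how such effects bear on the calls. The main fit holds no pairing of samples. The replicate block was tried because deviations of same-numbered libraries from their group means correlated at 0.514, 0.419 and 0.18. These values cover 16452 genes with a mean of at least 5 CPM. Deviations of other pairs correlated at -0.593 to 0.264, so the value of 0.18 lay within their range. The labels do not say what a number shares. Chi-square values of 43.9 to 69.8 per gene between replicates showed no repeated library.

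Loci were named from NCBI's TAIR10.1 annotation (32835 of 33602 matched). The 5 genes on each side of RRP6L1 were named, with up to 3 called members of each list and the 12 largest rises and 12 largest falls, taken from called genes whose log2 CPM averaged 1 or more and whose groups were separate. Of the falls 11 met the rule. Other genes were named after their values were seen. The members, lists and tests were chosen with earlier results of these data known. No per-sample column was left unused.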

Additional observations from a re-analysis of the deposited data

How the results depend on the processing

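Of the 48 genes called in unstressed seedlings, none reversed under any alternative, and AT5G26270, AT5G35935, AT5G38005, RRP6L1 and AT3G29120 were called in every alternative with a value. The count of 48 became 804 with DESeq2, 31 with a mean of at least 1 CPM, 24 with only the compared groups, 148 with the replicate block over all 18 libraries, 17 with the block and only the compared groups, and 29 without replicate 1 of every group, 14 of them among the 48. HIRD11, LBD26 and AT4G04223 lost their calls in that last fit, where each group has 2 libraries. Leaving out 1 library gave 16 to 71. Plain library sizes kept 33 of the 48, and DESeq2's size factors in edgeR all 48. The stress count of 19 became 56 with DESeq2, 12 with a mean of at least 1 CPM, 40 with only the compared groups, 44 with those groups and the block, and 13 to 18 without 1 library. The interaction had 1 call with DESeq2 and 0 or 1 without 1 library. The 19 calls against ahl10-1 became 59 with DESeq2, 12 with a mean of at least 1 CPM, 4 with only the compared groups, 1 with those groups and the block, and 12 to 30 without 1 library. The 3 called list loci became 29 with DESeq2, 9 with the block and 3 to 6 without 1 library. The cause of these moves was not tested. Among uncalled neighbours, the log2 fold change of AT1G54460 turned to -0.057 and -0.056 on RPKM with 0.1 and 0.5 added, to -0.058 with plain library sizes and ran from -0.029 to 0.072 without 1 library. That of ING2 turned to 0.0077 with DESeq2, 0.0078 with its size factors, 0.00051 without the filter and -0.053 to 0.026 without 1 library. That of XRN4 turned to 0.0017 and 0.0083 without 1 library. Depth limits low genes most: the median SE was 0.481 under 1 CPM and 0.086 between 10 and 100 CPM.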

Other observations

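Some loci lay just outside the calls. The pseudogene AT2G15520 and AT1G20795, an F-box gene, had reads in every rrp6l1-2 library and 0 in WT, and were at least 16.8-fold and 18.2-fold higher in rrp6l1-2 with adjusted p of 0.0838 and 0.0803 by edgeR. AT3G50540, an uncharacterized gene, had 37 reads in unstressed rrp6l1-2 against 0 in WT, and passed the test under stress alone (adjusted p = 0.0362). The 75 tested GDSL-like lipase genes, a family picked out after the values were seen, had ESM1 as the 1 called member (1.33%, against 0.211% of all genes), and 7 with the replicate block, all higher (9.33%, against 0.649% of all genes).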
